A study of Mus musculus with 18 samples.

Results

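Transcript levels of 9 genes of the inflammasome and of lytic cell death were described in the mouse macrophage-like line RAW264.7, in control cells and in a line edited in Kdm7a: Nlrp3, Aim2, Pycard, Casp1, Casp4, Gsdmd, Ripk1, Ripk3 and Mlkl. They were taken by symbol from a list of named genes drawn up by function, with earlier results of these data known, and all 9 were found among the 24411 gene symbols of the table. Of the 9, 8 passed the filter for testing, which was at least 1 TPM in at least 3 libraries, and Pycard did not. TPM, a transcript abundance scaled to the same total in each library, gives a gene's share of all transcripts after correction for transcript length, so levels of different genes can be set side by side.

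The 18 mRNA libraries formed 6 groups of 3. Control cells, which the labels call WT and which had received a control gRNA, and knockout (KO) cells made Kdm7a-deficient with CRISPR/Cas9 were each kept for 48 h in 3 states. M0 cells received no stimulus. M1 cells received 2 ng/ml mouse IFN-γ with 0.1 µg/ml LPS. M2 cells received 20 ng/ml of the mouse cytokines IL-4, IL-13 and IL-10 together with 2 ng/ml human TGF-β1. All groups shared the RAW264.7 background, and 1 control line and 1 knockout line were named, so effects of Kdm7a and other differences between these lines cannot be told apart. The labels do not say whether replicates were separate cultures, so the p-values rest on library-to-library spread alone, and this spread may be technical.

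An inflammasome is a protein complex in which a sensor recruits an adaptor and a protease. NLRP3 senses disturbance of the cell, AIM2 senses DNA in the cytosol, and both use the adaptor ASC, the product of Pycard, to activate caspase-1, which matures interleukin-1β and interleukin-18. The mouse gene Casp4 encodes caspase-11, which binds bacterial lipopolysaccharide in the cytosol. Both caspases cut gasdermin D, whose fragment forms pores in the plasma membrane and so kills the cell by pyroptosis. Necroptosis, another lytic death, runs through the kinases RIPK1 and RIPK3 to the pore-forming effector MLKL. In macrophages, LPS and interferons are known to raise transcripts of several of these genes, a step called priming. RAW264.7 cells are known to lack ASC. TPM measure transcripts, and neither protein cleavage nor cell death was measured here.

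Kdm7a, which encodes a histone lysine demethylase, was at 30.3% of the control mean in M0 KO cells, 25.3% in M1 and 29.2% in M2. KO libraries held 3.25 to 7.66 TPM of it and control libraries 10.96 to 30.32, so transcript remained in the KO line, and reads outside the edited site cannot show whether protein is made. All 8 macrophage markers measured were above 0 in every library. Their summed level was 5441 to 5598 TPM in control M0 and 4306 to 4400 in KO M0, 3573 to 3706 in control M1 and 2671 to 2779 in KO M1, and 4585 to 4743 in control M2 and 3729 to 3945 in KO M2. This sum was thus lower in KO than in control libraries in each state. It gives most weight to high genes such as Lyz2 (806 to 3722 TPM across the 18 libraries). Single macrophage markers were not compared between the lines. Of the other cell types checked, S100a8 reached 62.0 TPM in M1 libraries and Cd79a 21.2 TPM in M2 libraries, while Ms4a1, Cd8a, Epcam and Hbb-bs were listed at 0 in all 18. The part of these markers in the results below was not tested. In bulk RNA, fewer cells of a type and less RNA per cell cannot be told apart.

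**Figure D1:**
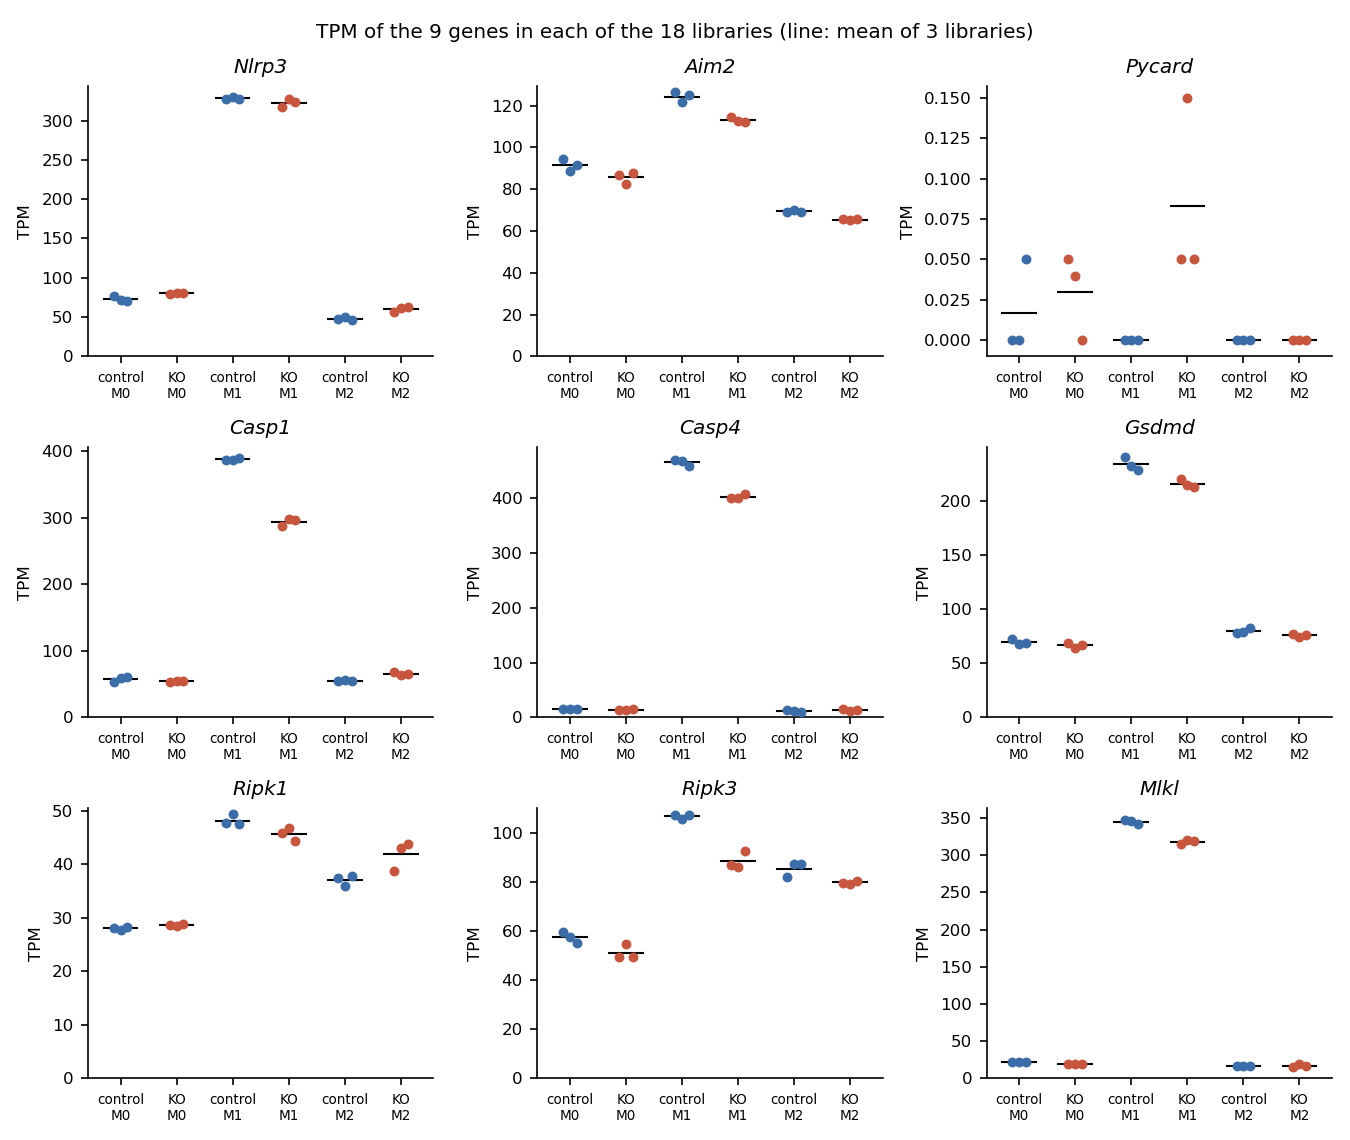
TPM of each of the 9 genes (vertical axes, each from its own scale) in the 18 libraries, by group (horizontal axes; blue points control, red points KO, black line the mean of 3 libraries). Casp4, Mlkl, Casp1, Nlrp3 and Gsdmd stand far above their M0 and M2 levels in the M1 libraries of both genotypes, and Pycard stays at or below 0.15 TPM.

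The first question was how the M1 stimulus changed the 9 genes in control cells. All 8 tested genes rose, from Casp4 at 30.1 times its M0 mean to Aim2 at 1.36 times. Across all 11548 tested genes, 32.2% were called higher and 56.9% lower in this comparison, by limma with a Benjamini-Hochberg adjusted p below 0.05. The median log2 change was 1.95 for the 8 genes and −0.38 for all tested genes. Since TPM are shares of a fixed total, scaling by TMM factors, which centre most genes on no change, moved the latter median to 0.08. The share of called genes that were higher moved from 36.1% to 53.1%, and all 8 genes stayed higher.

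Among the sensors, Nlrp3 was at 77.38, 71.35 and 70.14 TPM in the 3 control M0 libraries and at 327.51, 329.79 and 327.40 in M1. The M1 libraries lay close together and far above M0, a rise of 2.16 ± 0.04 on the log2 scale (SE, n = 3 per group, limma adjusted p = 1.42e-20). All log2 changes here are of TPM + 1, which understates the change of low genes. Aim2 went from 94.71, 88.73 and 91.43 TPM to 126.38, 121.68 and 124.93. That rise, 0.44 ± 0.03 (SE, limma adjusted p = 8.16e-11), was the smallest of the 8 and became 0.97 with TMM factors. In M0, Aim2 had the highest level of the 9 genes, and in M1 5 of the others were above it.

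Pycard, the adaptor gene, was listed at 0 in 12 of the 18 libraries. The other 6 libraries were control M0 library 3 at 0.05 TPM, KO M0 libraries 1 and 2 at 0.05 and 0.04, and the KO M1 libraries at 0.05, 0.15 and 0.05. Rpl26, a ribosomal protein gene that every cell uses, was also listed at 0 in most libraries, so a listed 0 in this table need not mean an absent transcript. Whether this holds for Pycard was not tested, and RAW264.7 cells are known to lack ASC, as stated above. Pycard was near 0 next to Nlrp3, Aim2 and Casp1, which were at 46.31 TPM or more in every library.

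Of the caspases, Casp4 rose most of the 8 genes, from 16.00, 14.52 and 15.99 TPM in control M0 to 470.91, 469.13 and 458.60 in M1. It had the lowest level of the 8 tested genes in M0 and the highest in M1. The rise was 4.82 ± 0.08 on the log2 scale (SE, limma adjusted p = 2.65e-20). Casp1 went from 53.55, 59.03 and 60.37 TPM to 386.94, 387.12 and 389.33, and the groups were far apart. Its change was 2.73 ± 0.04 (SE, limma adjusted p = 9.89e-23). Gsdmd, the substrate of both caspases, went from 72.18, 68.24 and 68.31 TPM to 241.07, 232.01 and 229.01, a change of 1.74 ± 0.04 (SE, limma adjusted p = 5.42e-20).

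In the necroptosis branch the effector moved far more than the kinases. Mlkl went from 21.96, 21.97 and 22.56 TPM in control M0 to 346.87, 345.68 and 342.31 in M1, or 15.6 times, a log2 change of 3.90 ± 0.05 (SE, limma adjusted p = 4.62e-23). Ripk3 went from 59.64, 57.53 and 55.31 TPM to 107.31, 105.72 and 107.35, which is 1.86 times. Ripk1 went from 28.05, 27.79 and 28.38 TPM to 47.67, 49.47 and 47.50, which is 1.72 times. The log2 changes of the kinases were 0.88 ± 0.04 and 0.76 ± 0.04 (SE, limma adjusted p = 5.13e-14 and 9e-13). Ripk1 shares 570 bases with Serpinb6a, which was at 113 to 229 TPM, and Ripk3 overlaps the lncRNA gene Gm32092. The library kit as named is not said to mark strand, so reads of overlapping genes cannot be told apart.

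KO cells showed the M1 rise in the same 8 of 8 genes, beside 32.0% of all tested genes higher and 58.4% lower. The median log2 change was 1.84 for the 8 and −0.43 for all tested genes. TMM factors moved the latter to 0.08 and the higher share of called genes from 35.4% to 52.4%. Casp4 reached 401.18, 400.98 and 407.41 TPM from 13.60, 14.28 and 14.38, a log2 change of 4.74 ± 0.08 (SE, n = 3 per group). Mlkl reached 315.17, 320.64 and 318.50 TPM from 19.39, 18.93 and 18.83, a change of 3.99 ± 0.05. The order of the 8 genes by log2 change, from Casp4, Mlkl, Casp1, Nlrp3, Gsdmd, Ripk3 and Ripk1 down to Aim2, was the same in both genotypes.

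**Figure D2:**
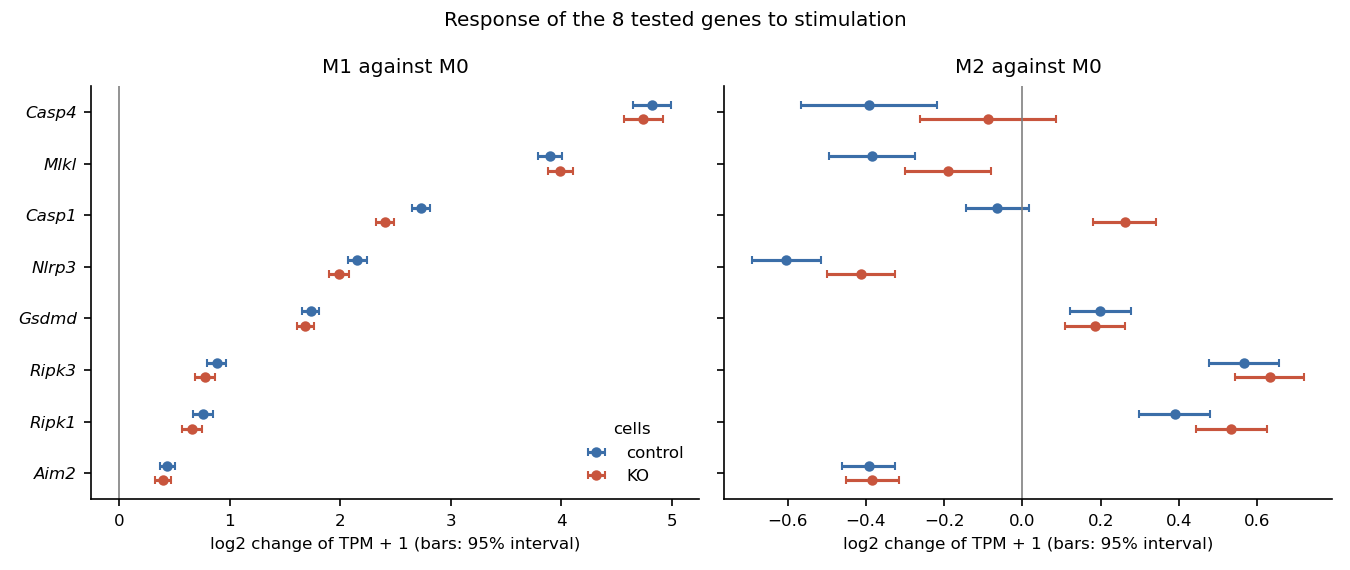
Log2 change of TPM + 1 (horizontal axes) of the 8 tested genes from M0 to M1 (left) and from M0 to M2 (right), in control (blue) and KO (red) cells; points are the limma estimates from 3 libraries per group and bars their 95% intervals. Every gene lies above 0 in the M1 panel, from 0.40 for Aim2 in KO cells to 4.82 for Casp4 in control cells, while the M2 panel has genes on both sides of 0.

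Because Casp4, Mlkl, Casp1 and Nlrp3 rose most with M1, their RefSeq start regions are shown, from 250 bases before to 50 bases after the annotated start, on the GRCm38.p6 assembly, of which mm10 is the UCSC name. Capitals mark a match to the NF-kappaB consensus on either strand, and where matches overlap the capitals cover both. The Casp4 window (chr9:5308599-5308898, plus strand) is the first of its windows, Mlkl is chr8:111338156-111338455 (minus strand), Casp1 is chr9:5298267-5298566 (plus strand) and Nlrp3 is the first window, chr11:59541319-59541618 (plus strand).
Casp4: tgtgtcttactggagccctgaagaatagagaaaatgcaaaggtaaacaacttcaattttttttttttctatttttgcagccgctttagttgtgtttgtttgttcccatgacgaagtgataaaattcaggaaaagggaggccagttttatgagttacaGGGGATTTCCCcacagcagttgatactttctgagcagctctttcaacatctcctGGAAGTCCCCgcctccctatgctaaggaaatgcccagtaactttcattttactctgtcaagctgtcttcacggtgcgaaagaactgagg
Nlrp3: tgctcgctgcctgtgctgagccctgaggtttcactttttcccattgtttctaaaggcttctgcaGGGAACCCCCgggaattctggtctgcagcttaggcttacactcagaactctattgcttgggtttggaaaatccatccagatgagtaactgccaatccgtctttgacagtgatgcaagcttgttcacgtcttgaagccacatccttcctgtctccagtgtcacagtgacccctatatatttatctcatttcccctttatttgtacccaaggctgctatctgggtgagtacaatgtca
Casp1: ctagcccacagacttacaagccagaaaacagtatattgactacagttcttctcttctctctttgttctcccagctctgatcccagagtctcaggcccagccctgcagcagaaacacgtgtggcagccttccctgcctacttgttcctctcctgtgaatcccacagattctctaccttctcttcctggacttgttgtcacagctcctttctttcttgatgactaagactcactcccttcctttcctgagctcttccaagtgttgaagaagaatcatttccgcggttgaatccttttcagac
Mlkl: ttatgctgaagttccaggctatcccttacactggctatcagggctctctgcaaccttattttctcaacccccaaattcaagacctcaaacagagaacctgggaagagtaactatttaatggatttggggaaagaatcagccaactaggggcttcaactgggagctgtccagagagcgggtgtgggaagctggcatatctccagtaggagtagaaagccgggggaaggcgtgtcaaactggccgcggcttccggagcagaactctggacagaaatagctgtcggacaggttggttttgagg

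In the Casp4 window 2 overlapping NF-kappaB matches ran from −93 to −83 and another, on the minus strand, from −39 to −30, counted from the start. The first Nlrp3 window held 1 match, from −186 to −177. No match to NF-kappaB, to GAS (TTCNNNGAA) or to a short ISRE form (GAAANNGAA) was found in the Casp1, Mlkl, Aim2 or Pycard windows. The Mlkl window and the Aim2 window (chr1:173420354-173420653, plus strand) lie wholly inside the gene spans given below. They are placed at an annotated start within the gene, and the bases before the outer end of these 2 genes were not searched. Of 32851 mouse RefSeq windows of this length, 8.46% held the NF-kappaB match, 8.30% the GAS letters and 8.56% the ISRE letters on either strand. Elsewhere, the second Ripk1 window held 2 GAS matches, from −108 to −100 and from −11 to −3, with an ISRE match from −5 to 4 that overlaps the latter. The first Ripk1 window and the second Nlrp3 window held no match of any of these kinds. The second windows of Ripk1 (chr13:34002624-34002923) and Nlrp3 (chr11:59542436-59542735) also lie wholly inside the gene spans, while their first windows span the outer end. The Ripk3 window held 1 ISRE match, from 15 to 23. These are matches of letters and not sites, and no match says only that these letters are not in the window. A window was found for 8 of the 9 genes, and the gene table places all 9. Nlrp3 is at chr11:59541569-59566955, Aim2 at chr1:173349547-173466040, Pycard at chr7:127991373-127993867, Gsdmd at chr15:75862144-75867408, Mlkl at chr8:111311255-111338479, Ripk1 at chr13:34002225-34035170 and Ripk3 at chr14:55784995-55788857. Casp1 (chr9:5298517-5307281) and Casp4 (chr9:5308849-5336791) are neighbours on the same strand, with 1567 bases between them.

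Under the M2 stimulus the 8 tested genes split. In control cells Ripk3, Ripk1 and Gsdmd rose, Nlrp3, Casp4, Aim2 and Mlkl fell, and Casp1 was not called. That is 3 higher and 4 lower of 8, beside 28.4% higher and 37.0% lower of all tested genes. TMM factors moved the higher share of called genes from 43.4% to 52.6%, and the calls of the 8 did not change. The median log2 change was −0.22 for the 8 and −0.05 for all.

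Nlrp3 fell from its M0 level to 47.27, 49.42 and 46.31 TPM in control M2, below all 3 M0 libraries, by a log2 change of −0.60 ± 0.04 (SE, n = 3 per group, limma adjusted p = 1.59e-10). Aim2 was at 69.13, 70.27 and 69.22 TPM, also below every M0 library, a change of −0.39 ± 0.03 (SE, limma adjusted p = 2.27e-09). So both sensors fell. Casp4 was at 12.77, 11.43 and 10.60 TPM, a change of −0.39 ± 0.08 (SE, limma adjusted p = 0.000425). Casp1 held 54.64, 55.63 and 54.78 TPM inside the M0 range, a change of −0.06 with a 95% interval of −0.15 to 0.02 (limma adjusted p = 0.152). Without control M0 library 1 it was called, at −0.12 (limma adjusted p = 0.0075). Gsdmd rose slightly, to 78.00, 79.15 and 82.91 TPM, by 0.20 ± 0.04 (SE, limma adjusted p = 9.01e-05).

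The necroptosis kinases and their effector went opposite ways in control M2 cells. Ripk3 was at 81.97, 87.27 and 87.42 TPM, 1.49 times its M0 mean, and Ripk1 at 37.44, 35.99 and 37.77 TPM, 1.32 times. All of these libraries were above those of M0. Mlkl was at 16.69, 16.82 and 16.70 TPM, or 0.755 times M0, and below every M0 library. The log2 changes were 0.57 ± 0.04, 0.39 ± 0.04 and −0.39 ± 0.05 (SE, limma adjusted p = 5.05e-10, 1.62e-07 and 2.65e-06). Ripk3 and Gsdmd had the highest levels of the 9 genes in control M2, and their ranges overlapped.

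In KO cells the M2 stimulus raised Casp1, Gsdmd, Ripk1 and Ripk3 and lowered Nlrp3, Aim2 and Mlkl, with Casp4 not called. These 4 higher and 3 lower of 8 stood beside 29.6% higher and 43.2% lower of all tested genes. TMM factors moved the higher share of called genes from 40.7% to 51.4%. Casp1 went from 53.66, 54.66 and 55.22 TPM to 68.22, 63.44 and 64.93, above every M0 library, a change of 0.26 ± 0.04 (SE, limma adjusted p = 5.76e-06). Mlkl was at 14.73, 18.67 and 16.52 TPM and its library 2 came close to the M0 libraries. Its change of −0.19 ± 0.05 (SE, limma adjusted p = 0.00311) was −0.10 and not called with TMM factors (limma adjusted p = 0.0765). Casp4 was at 15.90, 11.24 and 12.83 TPM, on both sides of M0, and changed by −0.09 with a 95% interval of −0.26 to 0.09. Without KO M2 library 1 it was called, at −0.21 (limma adjusted p = 0.00582).

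Ratios taken within a library do not depend on how libraries are scaled. Casp4 stood at 0.270 ± 0.027 times Casp1 in control M0 and at 1.20 ± 0.02 times in M1 (SD, n = 3), so the neighbouring caspase genes changed rank. Mlkl stood at 0.386 ± 0.020 times Ripk3 in control M0, at 3.23 ± 0.04 times in M1 and at 0.196 ± 0.007 times in M2 (SD, n = 3). The 3 ranges did not overlap, with M1 highest and M2 lowest. Nlrp3 to Aim2 went from 0.796 ± 0.026 in M0 to 2.64 ± 0.06 in M1 and 0.685 ± 0.017 in M2 (SD, n = 3). Ripk3 to Ripk1 stayed between 1.95 and 2.42 in all 9 control libraries and between 1.72 and 2.08 in all 9 KO libraries.

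**Figure D3:**
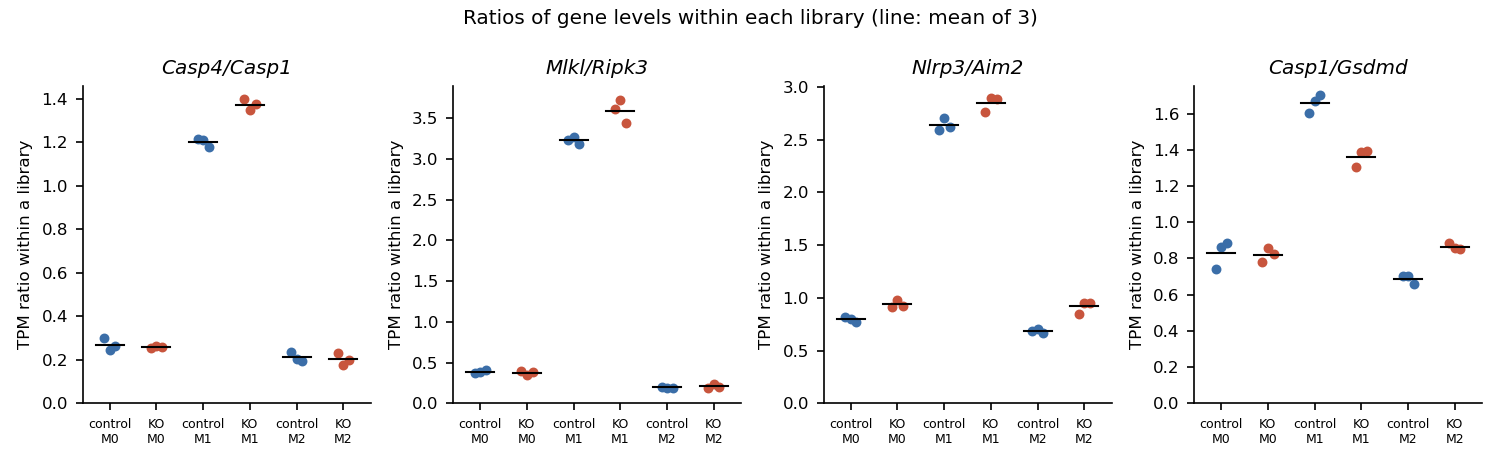
Ratios of TPM within each library (vertical axes, from 0) for 4 pairs of genes, by group (blue control, red KO; black line the mean of 3 libraries). The Casp4 to Casp1 and Mlkl to Ripk3 ratios pass 1 in the M1 libraries alone, and the Casp1 to Gsdmd ratio is lower in KO than in control M1 and higher in KO than in control M2.

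The next question was whether the KO and control lines differed in each state. In M0, Nlrp3 was higher and Mlkl, Ripk3 and Aim2 were lower in KO cells, 1 and 3 of 8, beside 8.86% higher and 10.3% lower of all tested genes. Mlkl was at 19.39, 18.93 and 18.83 TPM against 21.96, 21.97 and 22.56 in control cells, with no overlap. The difference, −0.21 ± 0.05 (SE, n = 3 per group, limma adjusted p = 0.00785), held its call in all 14 alternatives. Ripk3 was at 49.61, 54.74 and 49.52 TPM, below the lowest control library, a difference of −0.16 ± 0.04 (SE, limma adjusted p = 0.00973). This call did not hold without control library 1, KO library 1 or KO library 3 (limma adjusted p = 0.0509, 0.0532 and 0.0575).

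The calls for the sensors in M0 were less stable. Nlrp3 was at 79.49, 80.76 and 80.72 TPM in KO M0, just above the highest control library, a difference of 0.14 ± 0.04 (SE, limma adjusted p = 0.0251). It was no longer called without control library 2 or 3 or KO library 2 or 3 (limma adjusted p = 0.0947, 0.121, 0.0665 and 0.0719). Aim2, at 86.78, 82.63 and 87.78 TPM, differed by −0.09 ± 0.03 (SE, limma adjusted p = 0.0471). The call did not hold without control library 1 or 3 or KO library 1 or 2 (limma adjusted p = 0.184, 0.094, 0.0685 and 0.206) and with TMM factors (0.064). Casp1, Casp4, Gsdmd and Ripk1 were not called, with 95% intervals of −0.16 to 0.00, −0.30 to 0.04, −0.14 to 0.01 and −0.06 to 0.12. Casp1 was called, at −0.13, without control library 1 (limma adjusted p = 0.0148).

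Under M1, Casp1 had the largest difference between the lines among the 8 tested genes. It was at 287.10, 297.51 and 296.40 TPM in KO cells and at 386.94, 387.12 and 389.33 in control cells, or 75.7% of the control mean. All 3 KO libraries were far below the lowest control library. The difference, −0.40 ± 0.04 (SE, n = 3 per group, limma adjusted p = 5.79e-08), kept its call in all 14 alternatives, between −0.41 and −0.34. Ripk3 was at 87.09, 86.17 and 92.54 TPM, 83.0% of the control mean and below every control library. Its difference of −0.27 ± 0.04 (SE, limma adjusted p = 2.97e-05) kept its call in all 14, between −0.30 and −0.20.

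In all, 0 of 8 genes were higher and 5 lower in KO M1 cells, the others being Casp4, Aim2 and Gsdmd. Of all tested genes, 16.9% were higher and 33.4% lower. With TMM factors, which moved the higher share of called genes from 33.6% to 46.2%, and with median-ratio factors, 2 genes were called, Casp1 and Ripk3. Casp4 was at 401.18, 400.98 and 407.41 TPM, 86.5% of the control mean, a difference of −0.21 ± 0.08 (SE, limma adjusted p = 0.043). It did not keep the call when any 1 of the 6 libraries was left out (limma adjusted p = 0.0677 to 0.0956) and with TMM factors (0.162). Gsdmd, at 220.01, 214.70 and 213.01 TPM, differed by −0.12 ± 0.04 (SE, limma adjusted p = 0.013) and was not called without control library 1 (0.0703) or with TMM factors (0.22). Aim2, at 114.80, 112.84 and 112.01 TPM, differed by −0.13 ± 0.03 (SE, limma adjusted p = 0.00192), or 0.0621 with TMM factors.

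The other 3 were not called in M1. Mlkl was at 92.2% of the control mean, a difference of −0.12 with a 95% interval of −0.23 to −0.01 (limma adjusted p = 0.0737), and it was called when only the groups compared were fitted (0.000818). Ripk1 differed by −0.08 with an interval of −0.17 to 0.01. Nlrp3 was at 317.07, 327.07 and 323.23 TPM, the highest of which was just below the lowest control library, a difference of −0.03 with an interval of −0.11 to 0.06. Pycard, outside the test, was at 0.05, 0.15 and 0.05 TPM in KO M1 and listed at 0 in control M1. Without a filter on low values this was called (log2 difference 0.11, limma adjusted p = 0.00875), at a level far below 1 TPM.

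**Figure D4:**
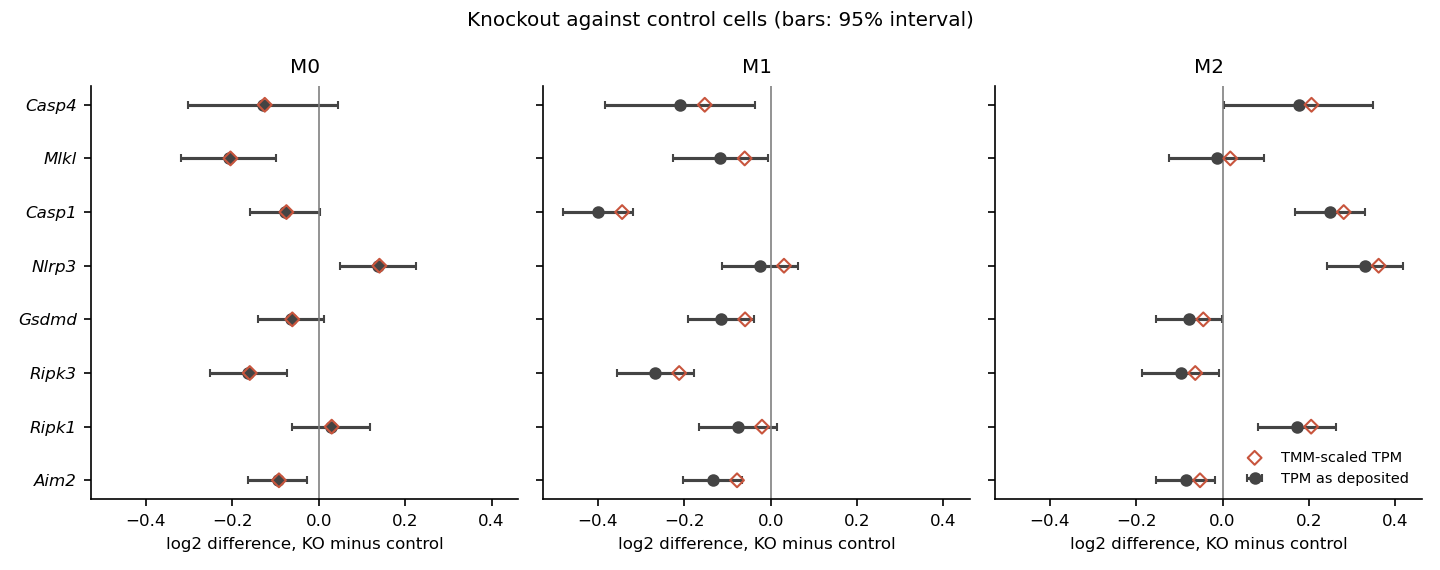
Log2 difference of TPM + 1, KO minus control (horizontal axes), of the 8 tested genes in M0, M1 and M2; filled points are limma estimates from the deposited TPM with 95% intervals as bars, and open diamonds the estimates after TMM scaling. Casp1 lies at −0.40 in M1 and at 0.25 in M2, and the diamonds lie to the right of the points in M1 and M2.

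Under M2, Casp1 was higher in KO cells, where under M1 it was lower. Nlrp3, Casp1 and Ripk1 were higher in KO cells and none of the 8 was lower, beside 12.7% higher and 18.3% lower of all tested genes. TMM factors moved the higher share of called genes from 41.0% to 56.2%. Nlrp3 was at 55.95, 61.92 and 62.65 TPM against 47.27, 49.42 and 46.31, or 126% of the control mean, a difference of 0.33 ± 0.04 (SE, n = 3 per group, limma adjusted p = 6.18e-06). Casp1 was at 68.22, 63.44 and 64.93 TPM against 54.64, 55.63 and 54.78, or 119%, a difference of 0.25 ± 0.04 (SE, limma adjusted p = 6.59e-05). Ripk1 was at 38.85, 43.15 and 43.85 TPM against 37.44, 35.99 and 37.77, or 113%, a difference of 0.17 ± 0.04 (SE, limma adjusted p = 0.00482). Each of these 3 genes kept its call in all 14 alternatives.

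The remaining 5 genes were not called in M2. Casp4 differed by 0.18 with a 95% interval of 0.00 to 0.35 (limma adjusted p = 0.118) and was called, at 0.28, without KO library 2 (0.00831). Aim2 was at 65.76, 65.12 and 65.54 TPM, below every control library, a difference of −0.09 (limma adjusted p = 0.0522), and it was called without a filter on low values (0.0428). The intervals were −0.15 to −0.00 for Gsdmd, −0.19 to −0.01 for Ripk3 and −0.12 to 0.10 for Mlkl.

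Whether the response itself differed between the lines was tested as an interaction. For the M1 response, 0 of 8 genes were higher and 2 lower in KO cells, beside 12.1% and 23.9% of all tested genes. TMM factors moved the higher share of called genes from 33.6% to 45.7%. Casp1 rose by 2.73 in control and 2.41 in KO cells, a difference of −0.32 ± 0.05 (SE, limma adjusted p = 0.000134) that was called in all 20 alternatives. Nlrp3 rose by 2.16 and 1.99, a difference of −0.16 ± 0.06 (SE, limma adjusted p = 0.0373). The call did not hold with TMM factors (0.111) and without control M0 library 2 or 3, any control M1 library, KO M0 library 2 or 3, or KO M1 library 1 or 3 (limma adjusted p = 0.0585 to 0.0983). For the other 6 genes the difference between the lines had intervals that included 0, the widest being −0.33 to 0.17 for Casp4.

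For the M2 response, 2 of 8 genes were higher and 0 lower in KO cells, beside 7.06% and 7.05% of all tested genes. TMM factors moved the higher share of called genes from 50.03% to 62.9%. Casp1 changed by −0.06 in control and 0.26 in KO cells, a difference of 0.33 ± 0.05 (SE, limma adjusted p = 0.000395) that was called in all 20 alternatives. Nlrp3 fell by 0.60 in control and by 0.41 in KO cells, a difference of 0.19 ± 0.06 (SE, limma adjusted p = 0.0376). The call did not hold without control M0 library 1 (0.099), control M2 library 1 or 3 (0.076 and 0.0884), any KO M0 library (0.0764, 0.0589 and 0.061) or KO M2 library 2 or 3 (0.0957 and 0.0912). Mlkl and Ripk1, at 0.19 and 0.14, were not called (limma adjusted p = 0.0915 and 0.128), but they were with TMM factors (limma adjusted p = 0.0335 and 0.0296) and without KO M2 library 1 (0.00173 and 0.00947). Casp4, at 0.30 (limma adjusted p = 0.0941), was called without KO M2 library 2 (0.00992). The interactions share their libraries with the comparisons of the lines in M0, M1 and M2.

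Set against its substrate gene, Casp1 showed the same pattern. The ratio reuses the Casp1 values behind the calls above, so it is not independent of them. The Casp1 to Gsdmd ratio was 0.830 ± 0.077 in control M0 and 0.820 ± 0.039 in KO M0 (SD, n = 3), with overlapping libraries. In M1 it was 1.66 ± 0.05 in control and 1.36 ± 0.05 in KO cells, and in M2 0.688 ± 0.024 in control and 0.865 ± 0.017 in KO cells. In M1 and M2 the libraries did not overlap. The Casp4 to Casp1 ratio in M1 was 1.20 ± 0.02 in control and 1.37 ± 0.02 in KO cells (SD, n = 3). An exact permutation test of 3 against 3 cannot go below 0.10, so the ratios are given without one. Beside these M1 differences, S100a8 and Mpo, the neutrophil markers measured, summed to 52.9 to 62.0 TPM in control M1 and 9.93 to 12.6 in KO M1, with Mpo at 0 in 16 of the 18 libraries. Beside the M2 differences, Cd79a was at 13.1 to 14.9 TPM in control M2 and 19.6 to 21.2 in KO M2, with Ms4a1, another B cell marker, at 0. Their part in these results was not tested.

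Genes of the interleukin-1 family were measured beside Casp1, and with M1 all 3 rose in both lines. Il1b, which encodes interleukin-1β, was at 324.47, 352.34 and 333.97 TPM in control M1 and at 810.00, 796.06 and 812.21 in KO M1. It was at or below 0.49 TPM in all M0 libraries. The M1 libraries of the lines were far apart, a difference of 1.26 ± 0.18 (SE, limma adjusted p = 2.2e-05). Il1a, at 69.51, 74.22 and 77.26 TPM in control M1 and 99.49, 98.86 and 95.74 in KO M1, was also higher in KO cells, by 0.41 ± 0.08 (SE, limma adjusted p = 0.00033). Il18, whose product caspase-1 also cuts, was at 59.62 to 62.55 TPM in control M1 and at 65.57 to 71.07 in KO M1, a difference of 0.15 that was not called (limma adjusted p = 0.226). With M2, Il18 changed by −0.85 in control and −0.92 in KO cells (limma adjusted p = 4.84e-07 and 1.21e-07). Between the lines in M2 it differed by −0.26 (limma adjusted p = 0.0468), a call lost with TMM factors (0.0963). Il1b and Il1a, at or below 1.35 TPM in all M2 libraries, were not called between the lines (limma adjusted p = 0.0712 and 0.648). With M2 in control cells Il1b was called higher, at 0.80 (limma adjusted p = 0.000866).

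The other genes of these pathways were read from 6 lists, to be set against 32.2% higher and 56.9% lower of all tested genes with M1 in control cells. Of 10 tested genes in a list of further inflammasome sensors and related sensors, 7 rose and 3 fell with M1 in control cells (7 and 1 with TMM factors). Ifi204, a DNA sensor, went from 20.93 to 22.77 TPM in M0 to 1694 to 1707 in M1, a log2 change of 6.20 (limma adjusted p = 3.65e-22). Nod1 and Nod2, sensors of bacterial cell wall fragments, rose by 4.01 and 2.34. Of 18 regulators, 11 rose and 7 fell (13 and 4 with TMM factors), led by the guanylate-binding proteins Gbp2, Gbp5 and Gbp3, which help caspase-11 to meet bacteria, at 10.16, 9.66 and 8.47. These are close copies of each other, and how reads they share were assigned is not known.

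Of 7 tested substrates and effectors, 5 rose and 1 fell with M1 in control cells (6 and 1 with TMM factors). The gene that fell was Hmgb1, a nuclear protein released by dying cells, from 246.46 to 264.60 TPM in M0 to 23.9 to 24.2 in M1 (log2 change −3.36, limma adjusted p = 1.23e-22). Of 5 other caspases, 3 rose and 2 fell (4 and 1 with TMM factors). Casp8, the caspase that restrains necroptosis, rose by 1.82 and Casp6 by 1.54, and Casp2 fell by 1.20. Of 31 genes of the necrosome and the death receptor complex, 21 rose and 7 fell (25 and 6 with TMM factors). Fas, a death receptor, rose by 7.06, Zbp1, a sensor that recruits RIPK3, by 6.96, and Tlr3 by 4.46 (limma adjusted p = 1.8e-21, 3.17e-23 and 1.02e-22). Of 8 genes of membrane repair, whose products pinch off damaged membrane, 7 rose and none fell, with Chmp4b at 1.57. The median log2 changes of the 6 lists lay between 0.34 and 1.07, beside −0.38 for all tested genes.

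**Figure D5:**
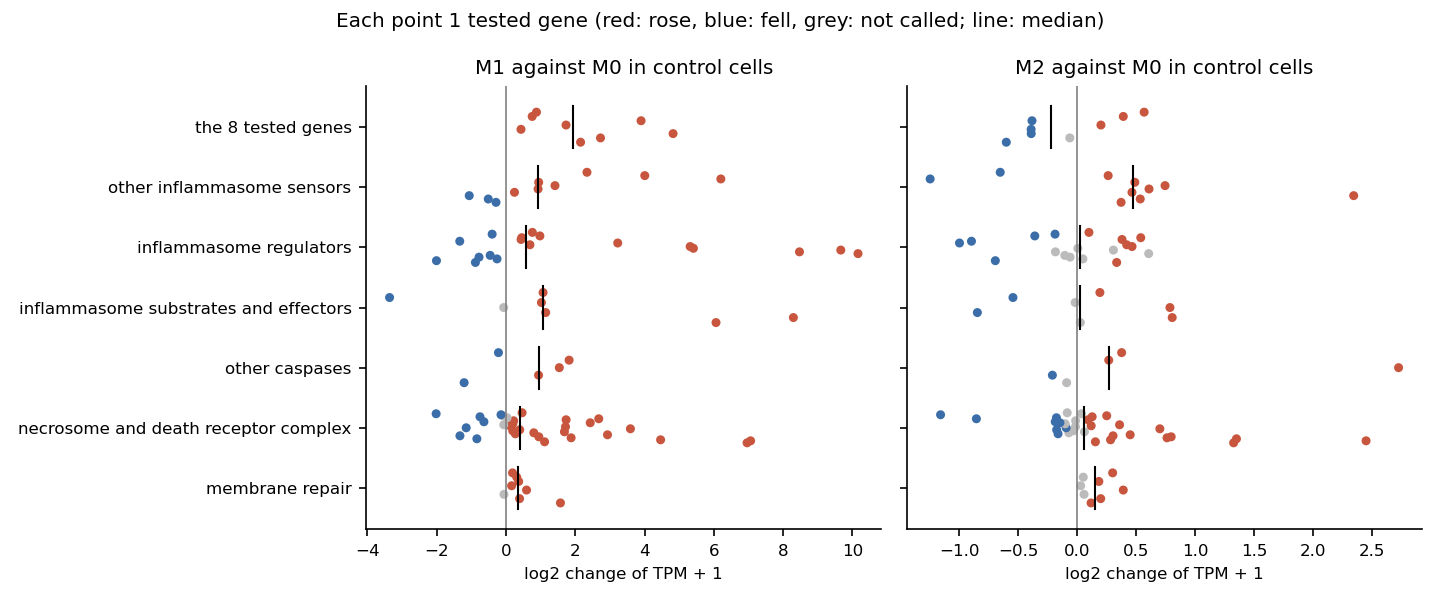
Log2 change of TPM + 1 (horizontal axes) with M1 (left) and M2 (right) in control cells for each tested gene of the 8 described genes and of the 6 lists (vertical axis); red points rose, blue points fell, grey points were not called, and black lines are medians. In the M1 panel the median of the 8 genes, 1.95, lies to the right of the list medians, and in the M2 panel it lies at −0.22.

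With M2 in control cells, where 28.4% of all tested genes were higher and 37.0% lower, 8 of the 10 further sensors rose and 2 fell. Nlrp10 rose from 4.51 to 5.38 TPM in M0 to 27.53 to 29.92 in M2, a log2 change of 2.34 (limma adjusted p = 2.27e-15), and Naip5, a sensor of bacterial flagellin, rose by 0.74. Ifi204 fell by 1.25. Of the 18 regulators, 6 rose and 5 fell, shares near those of all tested genes, with Irf8 at −1.0 and Mb21d1, which encodes the DNA sensor cGAS, at −0.90. Casp6 rose by 2.72 and Casp8 by 0.27. In the necrosome list 15 rose and 8 fell (16 and 4 with TMM factors), with Fas at 2.45, Tlr4 at 1.35 and Zbp1 at 1.32.

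Between the lines each of the 6 lists had genes higher and genes lower in KO cells in M1. In M2, 12.7% of all tested genes were higher and 18.3% lower in KO cells. There 0 of 7 substrates and effectors were higher and 5 lower (0 and 2 with TMM factors). Of 8 genes of membrane repair, 2 were higher and 0 lower in M2 (3 and 0 with TMM factors). In M1, where 16.9% of all tested genes were higher and 33.4% lower in KO cells, 9 of the 31 necrosome genes were higher and 4 lower (15 and 3 with TMM factors). Control M1 libraries held 289.88, 286.45 and 286.33 TPM of Fas and KO M1 libraries 453.26, 451.93 and 446.04, a difference of 0.65 ± 0.10 (SE, limma adjusted p = 2.77e-05), and Tlr4, the LPS receptor, differed by −0.51. Among the 18 regulators, 4 were higher and 3 lower (6 and 3 with TMM factors), with P2rx7, the ATP-gated channel that triggers NLRP3, at −0.70 and Irf8 at 0.40. Of the 10 sensors, 2 were higher and 5 lower (3 and 4 with TMM factors), with Nlrp10 at 1.10 and Naip5 at −0.42. In M2, mean Fas was 10.8 ± 1.04 TPM in control and 29.5 ± 1.47 in KO cells (SD, n = 3), a difference of 1.37 ± 0.10 (SE, limma adjusted p = 6.87e-09), and Casp6 differed by 0.64 ± 0.05 (SE, limma adjusted p = 1.96e-09). Casp8 was lower in KO cells in M0, at −0.18, and in M2, at −0.14. In M1 it differed by −0.08, a call lost with TMM factors (limma adjusted p = 0.0367 and 0.561).

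Genes whose group means followed each of the 8 genes most closely were found by the mean absolute difference of centred log2(TPM + 1) over the 6 group means, among 6760 other genes that span at least 1 log2 unit (6761 for Aim2 and Ripk1). For Nlrp3 they were B2m, Asph and Zc3h12c, at 0.085, 0.091 and 0.10. For Casp1 they were Blvrb, Cxcl9 and Dusp16. Blvrb, which encodes biliverdin reductase B, had means of 61.4, 423 and 70.7 TPM in control M0, M1 and M2 and 61.1, 313 and 74.4 in KO cells, beside 57.7, 388 and 55.0 and then 54.5, 294 and 65.5 for Casp1. Casp4 was nearest to Ddx60, Il33 and Ifih1, Mlkl to Ifi203, Olfr56 and Dusp1, and Gsdmd to Tank, Psmd11 and Zcchc6. Some of these genes were near 0 outside M1. In control M0 and M1, Cxcl9 had means of 0 and 6.74 TPM and Il33 of 0 and 28.4. Ddx60 was at 0.397 and 38.6 TPM there, and Olfr56 at 0.08 and 17.6. Adding 1 to TPM shrinks the change of such low genes, so likeness on this scale is not likeness of fold change. Ripk3 was nearest to Naip2, at 0.035, then Anxa3 and Mroh1. The group means of Aim2 and Ripk1 spanned less than 1 log2 unit themselves. Their nearest were Kctd6, Sfmbt1 and Nr6a1 for Aim2 and Atp11a, Dnajc16 and Zfand5 for Ripk1. These are likenesses over 6 points that share libraries, given as a description.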

How the data were processed

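Poly(A) RNA of RAW264.7 cells was sequenced in 18 libraries, 3 for each of 6 groups. The sample titles gave each library's group and number. The deposited values are TPM per gene symbol that the authors computed, with the same total in each library. Per the submitters' processing notes, Trim Galore was used and the build was mm10, and which aligner and quantifier were used is not given in the sources here. TPM keep no depth, so sequencing depth is unknown for every library, and intervals for counting error were not computed.

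The 9 genes, the gene lists and the tests were chosen with earlier results of these data known. Beside the 9 genes and Kdm7a, the text names from each list, in each comparison, up to 3 called genes with the largest log2 change and, in the higher group, a mean of 5 TPM or above. It also names Il1a, Il1b and Il18, called or not, and the 3 genes most like each of the 8 tested over the group means.

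Genes that reached 1 TPM in 3 or more libraries, 11548 in all, were fitted in limma 3.58.1 (R 4.3.3) on log2(TPM + 1), with a mean per group, a mean-variance trend and robust moderation. The variance is shared by all 6 groups. P-values are two-sided and Benjamini-Hochberg adjusted over all tested genes, and genes were called below 0.05. The fit was tested on simulated data. Alternatives were TMM and median-ratio factors, a pseudocount of 0.1 TPM, a filter of 5 TPM or none, no trend, only the groups compared, a replicate block, and each library left out. Promoter windows and gene positions came from RefSeq tables of GRCm38.p6, and all 9 symbols matched. Libraries of 1 group correlated at 0.994 to 0.997 across tested genes, and no pair of libraries was identical.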

Additional observations from a re-analysis of the deposited data

Results flagged for a closer look

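For 2 of the 8 tested genes a test of the difference itself showed that the response to a stimulus differed between the KO and the control line. Of all tested genes, 12.1% were called higher and 23.9% lower for the M1 response and 7.06% and 7.05% for the M2 response, so 2 of 8 is no more than the share of all genes for M1. Casp1 responded less to M1 in KO cells, by −0.32 ± 0.05 on the log2 scale (SE, limma adjusted p = 0.000134), and more to M2, by 0.33 ± 0.05 (SE, limma adjusted p = 0.000395). Both differences kept their calls in all 20 alternatives. Nlrp3 responded less to M1 in KO cells, by −0.16 ± 0.06 (SE, limma adjusted p = 0.0373), and fell less with M2, by 0.19 ± 0.06 (SE, limma adjusted p = 0.0376). The Nlrp3 calls were lost in 13 and 11 of 20 alternatives. The comparisons share their M0 libraries, so the M1 and M2 differences of a gene are not independent of each other.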

How the results depend on the processing

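All 8 genes kept their M1 calls in both lines under every alternative run. In KO M1 cells 5 genes were called in the deposited TPM and 2 with TMM or median-ratio factors. For the genotype difference in the M1 response the count went from 2 to 1 with TMM factors, with median-ratio factors, without the trend and without a filter, and for the M2 response from 2 to 4 with either set of factors and to 1 without the trend, without a filter or with only the groups compared. With 1 library left out, the counts were 8 to 8 for M1 in either line, 7 to 8 for M2 in either line, 2 to 3 for KO in M0, 3 to 4 for KO in M1 and for KO in M2, 1 to 2 for the M1 response and 1 to 4 for the M2 response. No count moved beyond 1.5 times with a pseudocount of 0.1 TPM or a filter of 5 TPM, although Casp4 in KO M1 lost its call with that pseudocount (limma adjusted p = 0.0594). Aim2 in KO M0 also lost its call without the trend (0.0629) and with only the groups compared (0.117). Some values that were not called changed sign. With TMM factors these were Casp1 in control M2 (0.00099), Casp4 in KO M2 against M0 (0.0040), Nlrp3 in KO M1 against control (0.031), Mlkl in KO M2 against control (0.018), and for the genotype differences Aim2 in M1 (0.014), Gsdmd in M1 (0.0019) and Gsdmd in M2 (0.016). With median-ratio factors they were Nlrp3 in KO M1 (0.039), Mlkl in KO M2 (0.016), and the differences of Aim2 in M1 (0.027), Gsdmd in M1 (0.015) and Gsdmd in M2 (0.019). With 1 library left out they were Aim2 (−0.017 to 0.032 over these fits) and Gsdmd (−0.044 to 0.011) in the M2 response, Mlkl in KO M2 against control (−0.095 to 0.066) and Casp4 in KO M2 against M0 (−0.21 to 0.020). Beyond the scaling factors, which recentre all genes, the cause was not tested. The labels do not say whether replicate numbers pair the libraries. Same-numbered libraries of different groups had deviations that correlated at a median of 0.018 over 45 pairs (−0.16 to 0.15). Differently numbered libraries were at −0.011 over 90 pairs (−0.21 to 0.18). No pairing was seen here, which does not show that there is none. A replicate block moved the KO M2 count from 3 to 4, by Aim2 (limma adjusted p = 0.0464), and no other count. TPM hold no depth, so how far it limits the small differences is unknown.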

Other observations

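Transcripts that M1 raised strongly were also found at low levels in some control M2 libraries. Nos2, the inducible nitric oxide synthase, was at 3515 to 3625 TPM in control M1 and at 2.04, 5.24 and 0.23 TPM in the 3 control M2 libraries, against 0.36, 0.33 and 0.60 in control M0. In the same control M2 libraries Gbp2 was at 0.85, 2.33 and 0.08 TPM and Il1b at 0.95, 1.35 and 0.44. Il6 was at 1.56, 1.46 and 0.09 TPM there. Library 3 was lowest for all 4 genes, which were chosen after their values were seen, and library 2 was highest for 3 of them. In the 3 KO M2 libraries Nos2 was at 0.76, 1.04 and 1.13 TPM and Gbp2 at 0.35, 0.49 and 0.21, against KO M0 values of 0.76, 0.72 and 1.75 and of 0.26, 0.59 and 0.78, and the groups overlapped. Casp4 and Mlkl, which M1 raised most of the 8 genes described, were at 12.77, 11.43 and 10.60 TPM and at 16.69, 16.82 and 16.70 TPM in the control M2 libraries, below every control M0 library. A trace as small as that of Nos2 beside its M1 level could not be seen in genes at these levels. The values of Casp4 and Mlkl therefore do not bear on such traces.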
